A study of Drosophila melanogaster with 4 samples.

Results

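The base of arm 2L is the end of the left arm of chromosome 2 that borders the centromere, where the gene-dense euchromatin of the arm passes into pericentric heterochromatin. It was taken here as the last 2 Mb of the assembled arm (coordinates are those of FlyBase release 5, per the file headers) together with all of 2LHet, a separate sequence of 368872 bp that holds heterochromatin assigned to that arm. Members were the enriched regions of the combined replicate-set list whose midpoint lay in those bounds, and position alone chose them. There were 265 of them, 219 on the base of 2L and 46 on 2LHet, of 21932 enriched regions in all. By the same rule the list of ChIP replicate 1 held 168 regions (132 and 36) of 6699, and that of ChIP replicate 2 held 171 (135 and 36) of 10048.

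The study mapped where the protein Su(var)3-9 is bound, using ChIP-seq, in which DNA fixed to a protein is recovered with an antibody and sequenced. ChIP DNA and input DNA came from L3 larvae, the last larval stage, of the wild-type strain Oregon-R-modENCODE, with 2 libraries of each kind and no mutant or treated group. The antibody was an affinity-purified rabbit antibody, Q2598, raised against residues 320 to 419 of Su(var)3-9. The labels name no dissected tissue, so the lists describe a mixture of larval cell types. Separate collections of larvae are not stated for the pair of ChIP libraries, and what differs between the libraries may be technique alone. The lists hold positions and a score for each region, on a scale that the files do not name, and no read depth, so the depth behind each value is unknown.

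Su(var)3-9 is a histone methyltransferase of Drosophila that places methyl groups on lysine 9 of histone H3. The protein HP1 binds that mark and also binds Su(var)3-9, and this pair of contacts is the classical account of how heterochromatin is maintained and spreads along a chromosome. Mutations of Su(var)3-9 suppress position-effect variegation, the patchy silencing of a euchromatic gene moved next to heterochromatin. The genes light and concertina lie in the heterochromatin of 2L, and light needs a heterochromatic setting for normal expression. The gene table at hand (release 6) lists them as the 7th and the 6th protein-coding genes of 2L counted from the centromere, with Tim23 as the innermost. It is of another release than the region lists, so no gene was placed on any region here.

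Along the arm, coverage by enriched regions was highest close to the centromere. Coverage is the share of bases lying inside regions. In bins of 500 kb counted outwards from the proximal end, replicate 1 covered 53.7%, 30.0%, 6.89% and 4.08% of the 4 bins of the base. Replicate 2 covered 40.7%, 26.2%, 7.35% and 5.17% of them. Both libraries were therefore high in the 2 inner bins and low in the 2 outer ones, and each bin exceeded the next one outwards. In the 42 bins of the rest of the arm, replicate 1 ran from 1.56% to 13.9% and replicate 2 from 2.01% to 23.3%, below the second bin of the base in each library. In the combined list the order did not hold, since the bin from 511545 to 1011544 was covered at 51.1%, above the second bin of the base at 43.3%.

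A fit of 2 levels to all 231 windows of 100 kb on the arm, counted from its proximal end, placed the step at the same window edge in both libraries, at 2L 22211545, 800 kb from the end. In replicate 1 the windows averaged 48.9% on the centromere side of the step and 6.35% on the rest of the arm. In replicate 2 they averaged 38.5% and 11.1%. The step took up 66.3% of the variance between windows in replicate 1, 29.1% in replicate 2 and 20.8% in the combined list, where it fell at the same edge between 59.0% and 25.3%. It lay at 22161545 in both libraries when windows of 50 kb were used. A fit of 2 levels gives a step for any profile, and no gradual rise was fitted beside it, so whether coverage climbs gradually was not tested. The base was thus divided into an inner block of 0.8 Mb (from 22211545 to the end of the arm) and an outer part of 1.2 Mb. Coverage set this division, and coverage comes from the number and length of regions. The coverage of these parts, and the counts, lengths and gaps of their regions, are therefore given as a description. Their scores are a description too, since score went with length in the inner block.

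**Figure D1:**
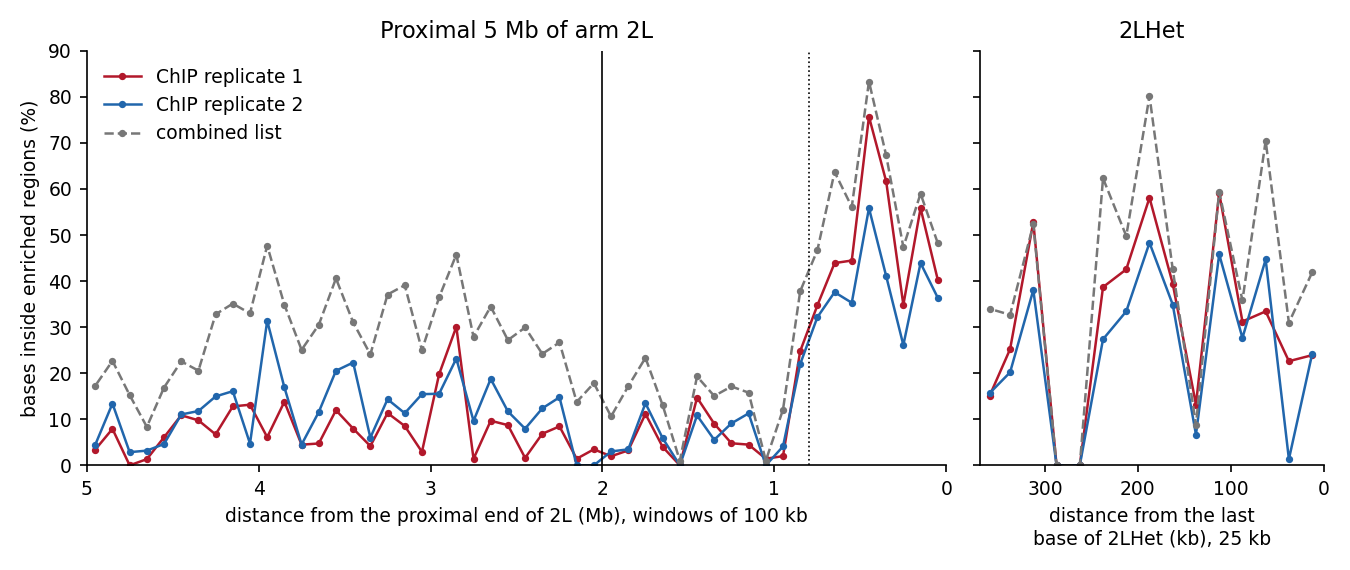
Share of bases inside enriched regions in windows of 100 kb over the proximal end of arm 2L (left; distance from the proximal end in Mb) and in windows of 25 kb on 2LHet (right; distance from its last base in kb). The lines are the 2 ChIP replicates and the combined list, the solid vertical line is the outer limit of the base, and the dotted line the step at 800 kb. In replicate 1 the 8 windows of the inner block lie between 34.7% and 75.7%, and on 2LHet 2 neighbouring windows are at 0.

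All 8 windows of the inner block stood above all 12 windows of the outer part in each library. In replicate 1 the inner windows ran from 34.7% to 75.7% with a median of 44.2%, and the outer ones from 0 to 24.8% with a median of 4.25%. In replicate 2 they ran from 26.1% to 55.8% with a median of 37.0%, and from 0 to 22.0% with a median of 5.73%. A covered share of 25% or more in each replicate was reached by 42 of the 1194 windows of the large arms (3.52%), of which 9 lay on 2L, 16 on 2R, 15 on 3L, none on 3R and 2 on X. All 8 windows of the inner block reached it, against none of 12 in the outer part and 1 of 211 on the rest of 2L. That single window (811545 to 911544) lies near the other end of the arm, at 27.1% in replicate 1 and 39.5% in replicate 2. In replicate 1 no window of the rest of the arm reached the lowest window of the inner block, while in replicate 2 there were 10 that did.

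The densest window of the base was 2L 22511545 to 22611544, with 75.7% covered in replicate 1, 55.8% in replicate 2 and 83.3% in the combined list. The sparsest was 21411545 to 21511544, which held no region of either replicate. Across the 20 windows of the base the 2 libraries had Pearson's r of 0.98 and Spearman's rho of 0.97, a description only, since neighbouring windows are not independent and the libraries may share their input. Replicate 1 was the higher in all 8 windows of the inner block, whereas on the rest of the arm replicate 2 was the higher in 160 of 211 windows.

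In bins of 20 kb the edge was uneven on both sides. Inside it, replicate 1 covered 73.6% and replicate 2 covered 66.1% of the bin that adjoins the step (22211545 to 22231544). The next one inwards (22231545 to 22251544) was covered at 6.55% and 0, and the bin from 22291545 to 22311544 at 15.9% and 5.65%, so single bins of the inner block were as low as bins of the outer part. The 2 bins just outside the edge (22171545 to 22211544) were covered at 57.1% and 43.6% in replicate 1 and at 36.0% and 35.4% in replicate 2. The next 3 bins outwards lay between 6.51% and 8.65% in replicate 1 and between 8.06% and 16.5% in replicate 2. Within 100 kb outside the step, the outermost stretch in both lists was 22128202 to 22129650, in the outer part. Beyond it, 293539 bp passed without a base shared by both lists, up to a stretch that ended at 21834662.

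Over the whole 2 Mb, coverage of the base of 2L was 21.8% ± 2.68, against 8.88% ± 3.57 over the rest of 2L (SD, n = 2 libraries each). The difference was 17.3 percentage points in replicate 1 and 8.45 in replicate 2, with a mean of 12.9 ± 6.25 (SD, n = 2). It was positive in both libraries. An exact sign-flip permutation test over 2 libraries cannot give a two-sided p below 0.5 and gave 0.5 here, and no test that assumes a distribution was run. The inner block alone was covered at 43.7% ± 7.34 and the outer part at 7.10% ± 0.418 (SD, n = 2). The inner block makes up 3.48% of the length of 2L and held 21.7% of the covered bases of the arm in replicate 1 and 11.0% in replicate 2. Of the bases of 2L that lay in both lists, 34.8% fell in it.

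The outer part was not covered more than the arm interior in both libraries. It stood at 6.80% against 6.35% over the rest of 2L in replicate 1 and at 7.39% against 11.4% in replicate 2. These directions are opposite, and their mean of −1.78 percentage points is smaller than its SD of 3.15. The sign in replicate 1 depended on the window just outside the step, covered at 24.8% in replicate 1 and 22.0% in replicate 2. With the edge moved 100 kb outwards, past that window, the outer part stood at 5.17% in replicate 1 and 6.07% in replicate 2. Both values lay below the rest of 2L, with a mean difference of −3.26 ± 2.93 (SD, n = 2). In the combined list the outer part was covered at 15.3%, below the 26.0% of the rest of the arm. It held regions at 85.0 per Mb there, against 149 per Mb. The whole base carried fewer combined regions per Mb than the rest of 2L, 109.5 against 149, although more of its bases were covered, 32.8% against 26.0%. In the single libraries the count of regions went the other way, with 66.0 per Mb at the base against 35.1 on the rest of 2L in replicate 1 and 67.5 against 61.1 in replicate 2.

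The outer part contained the longest stretch of the base outside all 3 lists, 131184 bp from 2L 21412885 to 21544068. The tandem histone gene repeat of Drosophila is known to lie at the base of 2L, and whether it overlaps this stretch was not examined, for want of gene positions on release 5. Next to the stretch, on its centromere side, lay an isolated group of regions that was called in both libraries. In the adjoining 50 kb (21544069 to 21594068) replicate 1 covered 27.2% and replicate 2 covered 18.7%. The region of replicate 1 at 21548386 to 21550099 had the highest score of that library in the outer part, 1.64, and the region of replicate 2 at 21545662 to 21549070 the highest of its own, 1.02. The medians of the outer part were 0.617 in replicate 1 and 0.473 in replicate 2. Another stretch without a region in any list, of 65981 bp, ran from 21931546 to 21997526.

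On 2LHet, 27.7% ± 4.18 of the bases were covered (SD, n = 2), against 8.88% ± 3.57 over the rest of 2L. The difference was 24.3 percentage points in replicate 1 and 13.3 in replicate 2. Compared with the inner block of the arm, 2LHet was covered less in both libraries, at 30.6% against 48.9% in replicate 1 and at 24.7% against 38.5% in replicate 2. Coverage on 2LHet was uneven. Of its 15 windows of 25 kb, 2 neighbouring ones held no region in any list. They lie in a stretch of 57860 bp (62420 to 120279) outside all 3 lists. A second such stretch of 28881 bp ran from 208691 to 237571. Unsequenced bases in the assembly could not be counted without the release 5 sequence. In the densest window by the mean of the replicates (168873 to 193872) 58.1% was covered in replicate 1 and 48.3% in replicate 2. The order and orientation of 2LHet relative to the arm end are not given in the files.

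**Figure D2:**
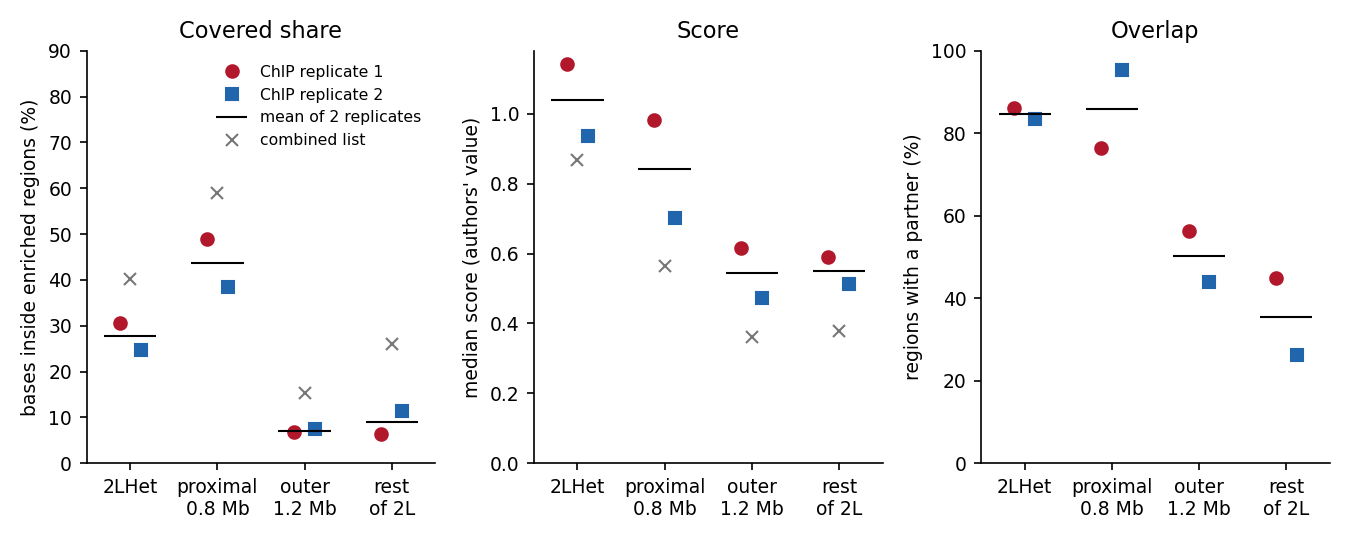
Covered share (left), median score (middle) and share of regions with a partner in the other replicate (right) on 2LHet, in the inner 0.8 Mb and the outer 1.2 Mb of the base, and on the rest of 2L. Circles are ChIP replicate 1, squares ChIP replicate 2, bars their mean and crosses the combined list, which has no partner share. The inner block is highest in covered share, at 48.9% and 38.5%, and 2LHet is highest in median score, at 1.14 and 0.937.

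Scores followed another order than coverage. Regions on 2LHet had median scores of 1.14 in replicate 1 and 0.937 in replicate 2. In the inner block the medians were 0.981 and 0.701, in the outer part 0.617 and 0.473, and on the rest of 2L 0.589 and 0.513. So 2LHet had the highest median in each library, though its coverage was lower than that of the inner block, and the outer part differed from the arm interior by 0.03 in replicate 1 and −0.04 in replicate 2. Scores of different zones are compared here only within a list. A mean over the 2 libraries averages such differences, so its SD also holds any difference in scale between the lists. The difference between 2LHet and the rest of 2L was 0.55 in replicate 1 and 0.42 in replicate 2, a mean of 0.49 ± 0.09 (SD, n = 2). For the base as a whole the difference from the rest of 2L was 0.23 and 0.06, a mean of 0.14 ± 0.12 (SD, n = 2).

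In the combined list the median score was 0.869 on 2LHet, 0.564 in the inner block, 0.362 in the outer part and 0.378 on the rest of 2L. A score above the upper quartile of the whole combined list, 0.458, is by definition reached by 25% of all its regions. It was exceeded by 42 of 46 regions on 2LHet, 78 of 117 in the inner block, 12 of 102 in the outer part and 309 of 3121 on the rest of 2L. Within the inner block scores showed almost no trend with position (Spearman's rho 0.06 across 117 regions), nor did they in the outer part (0.06 across 102), so the correlation over the whole base (0.51 across 219) came with the change from outer part to inner block. Score also went with region length, with rho of 0.53 in the inner block, 0.51 over the base, 0.14 in the outer part and 0.20 on 2LHet. Length enters coverage, which set the division, so the scores of the 2 parts are not fully independent of it. These are descriptions across regions of 1 list.

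**Figure D3:**
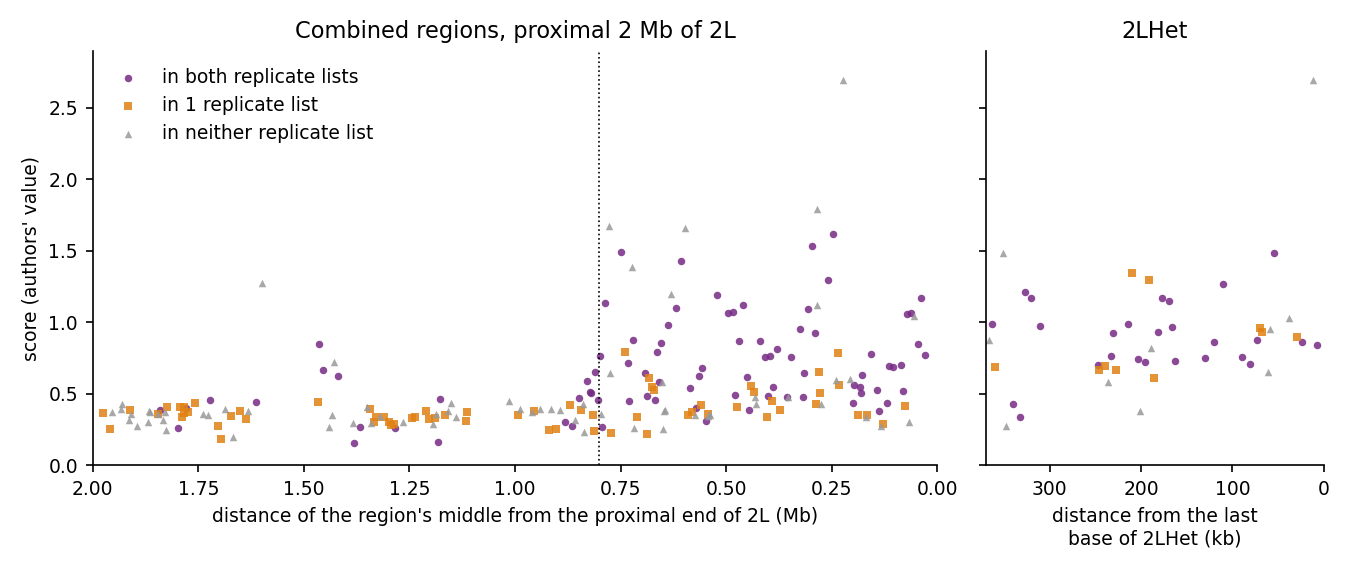
Score of each of the 265 combined regions against its position, on the base of 2L (left; distance of the region's middle from the proximal end in Mb) and on 2LHet (right; kb from its last base). Symbols show whether a region overlaps both, 1 or neither replicate list, and the dotted line is the step at 800 kb. Most scores above 0.5 lie inside the step, and the regions with a score of 2.69 overlap neither replicate list.

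The highest scores of the combined list at the base belonged mostly to short regions that neither replicate list contained. Of the 5 highest-scoring combined regions of the base, 4 overlapped neither list, and these measured 1001 to 1908 bp. The share in neither list was 31.5% over all 219 combined regions of the base and 44.4% over the whole combined list. They lay at 22788107 to 22789217 (score 2.69), 22726132 to 22727132 (1.79), 22233046 to 22234088 (1.67) and 22413886 to 22415793 (1.66). The fifth, 22757191 to 22769872, was 12682 bp long with a score of 1.62, and the regions under it scored 2.03 in replicate 1 and 1.52 in replicate 2. On 2LHet, 2 of the 5 highest overlapped neither list, and the top one (356003 to 357521) again scored 2.69. Over the whole base, combined regions in neither list had a median score of 0.376 and a median length of 1184 bp, and those in both lists 0.628 and 4177 bp.

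Regions of the inner block had a greater median length than those elsewhere on the arm. It was 2945 bp in replicate 1 and 2525 bp in replicate 2. On 2LHet it was 2406 and 2224 bp, in the outer part 1795 and 1502 bp, and on the rest of 2L 1639 and 1626 bp. For the base as a whole the median exceeded that of the rest of 2L by 511 bp ± 201 (SD, n = 2). Regions over 5 kb made up 6.06% of the whole list of replicate 1 and 3.4% of that of replicate 2. In the inner block they were 23 of 93 regions in replicate 1 and 21 of 85 in replicate 2, and in the outer part none of 39 and none of 50. On the rest of 2L they were 6 of 738 and 14 of 1283. The median gap between neighbouring regions was 1701 bp in replicate 1 and 2571 bp in replicate 2 in the inner block, against 13834 and 14424 bp in the outer part. Since coverage set the edge of the block, these lengths and gaps are not independent of it. Over the whole combined list 3.59% of regions exceeded 5 kb, against 31 of 117 in the inner block, 11 of 46 on 2LHet and 3 of 102 in the outer part. In that list 10 of the 117 regions of the inner block exceeded 10 kb, against none on 2LHet, none in the outer part and 2 of 3121 on the rest of 2L. In the inner block 7 of 93 regions of replicate 1 and 4 of 85 of replicate 2 did. The share over the whole lists was not counted, nor were regions over 10 kb at the base of 3L, on 3LHet or on 3RHet. Whether such regions are particular to the inner block is therefore not shown. The longest combined region was 18594 bp in the inner block, but 21098 bp on the rest of 2L and 38520 bp on the base of 3L. It was 25481 bp on 3LHet and 23709 bp on 3RHet.

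**Figure D4:**
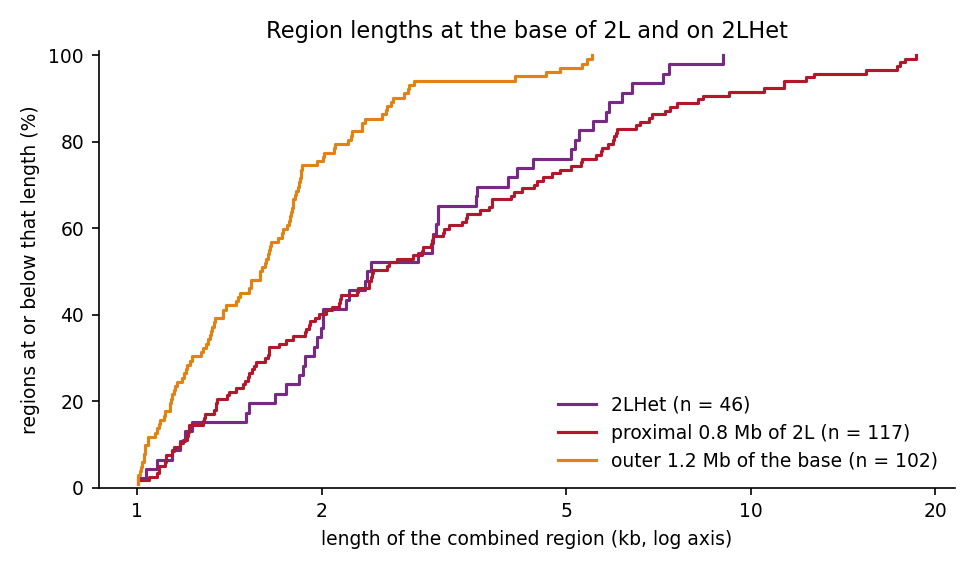
Cumulative share of combined regions by length (log axis, kb) on 2LHet, in the inner 0.8 Mb of the base and in its outer 1.2 Mb. The curve of the outer part lies left of the others, with a median of 1592 bp, against 2387 bp on 2LHet and 2422 bp in the inner block.

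The longest stretches inside both replicate lists all lay in the inner block. The first, 18059 bp at 2L 22479944 to 22498002, scored 1.53 in replicate 1 and 1.09 in replicate 2. It was followed by 22757869 to 22768385 (10517 bp, scores 2.03 and 1.52), 22853567 to 22864048 (10482 bp, 1.13 and 0.729), 22700375 to 22710642 (10268 bp, 1.48 and 1.03) and 22220295 to 22229088 (8794 bp, 1.42 and 1.10). On 2LHet the longest stretches were shorter. They lay at 152075 to 157956 (5882 bp, scores 1.32 and 0.919), 312013 to 317871 (5859 bp, 1.87 and 1.41), 256077 to 261306 (5230 bp, 1.65 and 1.19), 189809 to 194466 (4658 bp, 1.55 and 1.07) and 204662 to 208362 (3701 bp, 0.957 and 0.728).

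The libraries shared more of their regions at the base than on the rest of the arm. Of the regions of replicate 1 in the whole list, 53.5% overlapped a region of replicate 2 by at least 1 bp, and of those of replicate 2, 37.5% overlapped replicate 1. In the inner block 71 of 93 regions of replicate 1 (76.3%) and 81 of 85 of replicate 2 (95.3%) had a partner. On 2LHet the numbers were 31 of 36 (86.1%) and 30 of 36 (83.3%), in the outer part 22 of 39 (56.4%) and 22 of 50 (44.0%), and on the rest of 2L 332 of 738 (45.0%) and 335 of 1283 (26.1%). Longer regions and denser lists overlap more often by position alone, and their part in these shares was not tested. For the base as a whole the excess over the rest of 2L was 25.5 percentage points in replicate 1 and 50.2 in replicate 2.

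Measured in bases, the shared portion over the bases in either list (the Jaccard index) was 0.686 in the inner block, 0.582 on 2LHet, 0.298 in the outer part and 0.153 on the rest of 2L. Where regions overlapped, the rank order of scores was also closest in the inner block, with Spearman's rho of 0.89 across 71 pairs. It was 0.58 across 31 pairs on 2LHet, 0.60 across 22 in the outer part and 0.25 across 332 on the rest of 2L. Pairs share the library and, in part, the range of scores, so these values carry no test. The range also differed between zones. In replicate 1 the quartiles of all scores were 0.739 and 1.23 in the inner block and 0.507 and 0.675 on the rest of 2L. The part of this difference in the values of rho was not tested.

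Of all 21932 combined regions, 15.6% overlapped both replicate lists and 44.4% neither. On 2LHet 26 of 46 regions overlapped both (56.5%) and 10 neither. In the inner block 63 of 117 overlapped both (53.8%) and 28 neither. In the outer part 21 of 102 overlapped both (20.6%) and 41 neither (40.2%), near the share in the whole list. On the rest of 2L 330 of 3121 overlapped both (10.6%) and 1525 neither (48.9%). The combined list comes from the same libraries and is no independent check of them. At the edge of the member rule, the 2 regions just inside scored 0.368 and 0.253 and the 2 just outside 0.336 and 0.233.

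The base of 3L showed the same kind of step, further from the end of its arm. On 3L both libraries placed the step 1500 kb from the proximal end. Replicate 1 covered 48.9% of the 2L block and 50.8% of the 3L block, and replicate 2 covered 38.5% and 39.4% of them, a mean difference of −1.35 percentage points ± 0.782 (SD, n = 2). The 2 blocks differed in length, 800 kb against 1500 kb. The same fit to coverage set both of them, so the comparison of their coverage is a description. Over the full 2 Mb the base of 2L was covered less than that of 3L, with differences of −17.1 points in replicate 1 and −14.4 in replicate 2. In the combined list the step of 3L lay 2600 kb from the end. 

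On 3R and X the 2-level fit gave no step near the end of the arm that both libraries shared. On 3R it fell 19300 kb from the proximal end in replicate 1 and 22400 kb in replicate 2. On X it fell at 900 kb in replicate 1, between 12.0% and 5.86%, but at 20100 kb in replicate 2. X did hold a raised run of 3 windows set back from its end (21522828 to 21822827), covered at 27.5%, 31.9% and 26.8% in replicate 1 and at 26.7%, 26.5% and 17.2% in replicate 2, between windows of at most 11.0% in replicate 1 and 9.56% in replicate 2. The base of 2R was not compared further here. The base of 2L exceeded that of 3R in coverage by 15.2 percentage points in replicate 1 and 6.17 in replicate 2, and that of X by 15.7 and 9.62. Among the Het sequences, 2LHet was covered less than 3LHet, with differences of −17.6 and −12.7 points, and less than 3RHet, with −9.81 and −8.98. Against XHet the libraries differed in direction, with 4.73 in replicate 1 and −0.865 in replicate 2. In median score 2LHet differed from 3LHet by 0.00401 in replicate 1 and by 0.12 in replicate 2, from 3RHet by −0.08 and 0.01, and from XHet by −0.03 and −0.01.

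**Figure D5:**
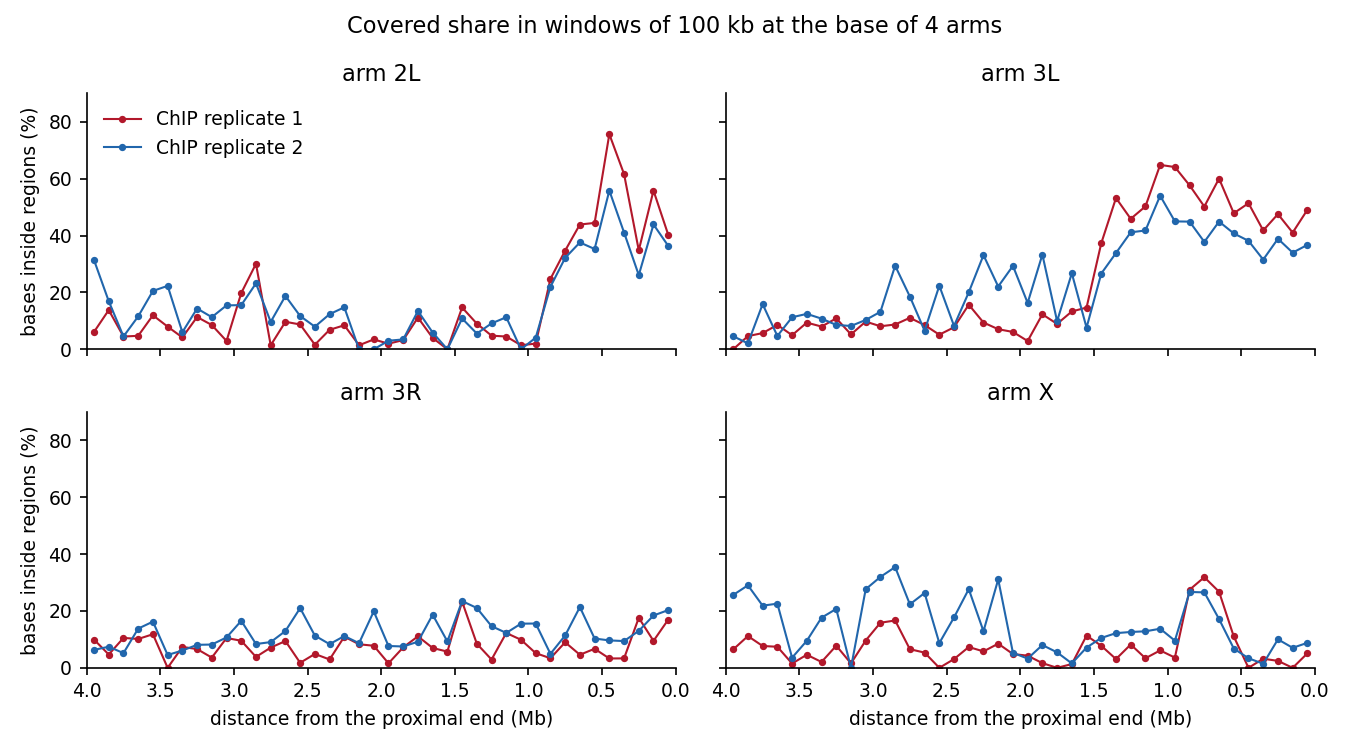
Share of bases inside enriched regions in windows of 100 kb over the proximal end of arms 2L, 3L, 3R and X, for ChIP replicates 1 and 2; the horizontal axis is the distance from the proximal end in Mb. The fitted step lies 800 kb from the end on 2L and 1500 kb from the end on 3L. X holds a raised run of 3 windows set back from its end, and 3R has no window that reaches 25% in both libraries.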

How the data were processed

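Reads were mapped with Bowtie 0.12.7, per the submitters' processing notes; the region caller, its threshold, any handling of multiply mapping reads and the use of input are not given here. Positions in the deposited files are on FlyBase release 5, per the file headers, with 1 list for each ChIP library and 1 for the replicate set. The score of each region is the authors' own value. Replicate numbers follow the sample titles. No region list of an input library was at hand, and no region was set against its input. Depleted regions (5, in the combined list) were dropped, and none lay at the base of 2L or on 2LHet.

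A covered share divides the bases in regions, clipped at the interval's edges, by the interval's length; scores, lengths and counts use regions whose midpoint lies in the interval. Values are given per library, with mean ± SD over 2 libraries. The only test over samples was an exact sign-flip permutation test, whose smallest two-sided p with 2 libraries is 0.5; p-values over regions were not computed. Named regions are the 5 longest stretches in both lists and the 5 highest-scoring combined regions of the base and of 2LHet, the densest and sparsest window of the base and the longest stretches outside all lists. The members, zones and rules were chosen with earlier results of these data known. The division at the step, the bins of 20 and 500 kb, the regions beside the longest stretch outside all lists and the limit of 10 kb were chosen after the profiles were seen. Alternatives were single libraries, the combined list, bases of 1 and 3 Mb, the top 50% by score, equal numbers of regions, other windows, merged regions and stricter overlap. The edge of the inner block was also moved 100 kb outwards. Interval functions were checked on simulated lists. Sequences were not used here, for want of a release 5 genome. Python 3.11.15, NumPy 2.4.6, SciPy 1.17.1 and matplotlib 3.10.9 were used.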

Additional observations from a re-analysis of the deposited data

How the results depend on the processing

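Of 57 alternatives, 18 left out a library, which with 2 libraries moves a mean by less than their SD by construction, and 2 changed the unit. Of the other 37, 30 moved a value by less than that SD and kept its direction. An SD over 2 libraries is a wide limit, so this count is a weak check. In the combined list the coverage excess of the base was 6.77 points instead of 12.9, and its score excess 0.03 instead of 0.14. Both were counted as within the SD. Of the 57, 10 were added after the data were seen. The excess of the base over the rest of 2L was 28.9 percentage points when the base was the proximal 1 Mb, and its excess in median length was then 799 bp; the cause of the first lies in the construction, since most of that 1 Mb is the inner block. The length excess was 1064 bp in the top 50% by score and 720 bp with regions under 1 kb apart merged, and the cause was not tested. The median score of the base weighted by bases exceeded that of the rest of 2L by 0.33. Counted as regions per Mb, the excess over the rest of 2L was 49.5 ± 18.3 for 2LHet and 18.7 ± 17.3 for the base (SD, n = 2). These cannot be set against percentage points. In the combined list both differences in regions per Mb were negative, at −23.8 for 2LHet and −39.0 for the base. The step lay at 22161545 with windows of 50 kb. The outer part minus the rest of 2L turned to 0.450 points without replicate 2, stood at −4.01 without replicate 1, and was −10.7 in the combined list. It was −3.26 with the edge of the inner block 100 kb further out, negative in both libraries. Leaving out each replicate gave 8.45 to 17.3 points for the base, 13.3 to 24.3 for 2LHet, and 31.2 to 42.1 for the inner block against the outer part. With the 6699 highest-scoring regions of each list replicate 1 covered 23.7% of the base and 6.35% of the rest of 2L, and replicate 2 covered 16.2% and 7.01%, so the ratios of 3.72 and 2.31 still differed. No paired analysis was possible between ChIP and input libraries, although replicate numbers are shared between them, because input was not analysed here. The differences between zones were taken within each ChIP library. Depth is unknown, so a missing region does not show that binding was absent.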

Other observations

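Many regions carried exactly the same score as another region of their list (equal to 9 decimals). Among the regions of the base of 2L and 2LHet these were 117 of 265 in the combined list (44.2%), 61 of 168 in replicate 1 (36.3%) and 68 of 171 in replicate 2 (39.8%). The shares over the whole lists were 61.7%, 53.4% and 59.0%. The top regions of the base and of 2LHet, 22788107 to 22789217 on 2L and 356003 to 357521 on 2LHet, were tied at 2.69. In each list some tied scores were matched by other tied scores exactly 1 higher, such as 0.278394 (129 regions) and 1.278394 (25 regions) in the combined list and 1.165637 (36 regions) and 2.165637 (24 regions) in replicate 1. There were 87 such scores in the combined list, 79 in replicate 1 and 58 in replicate 2. The files do not name the scale of the score.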
